A study of Gallus gallus with 6 samples.

Results

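The ZIC and iroquois (IRX) transcription factors were read in anterior and posterior half-sclerotomes of wild type chick embryos at embryonic day 3, Hamburger-Hamilton stage 18. Members were the rows of the authors' deposited gene table whose symbol is ZIC or IRX followed by a digit, which gave 6 of 17108 rows. The 5 rows described are ZIC1 and 4 iroquois genes (IRX1, irx2, IRX4 and IRX6). They were chosen by symbol, and the family was selected on its anterior and posterior FPKM in this same table, so the levels, ratios and calls below describe the members and carry no test of their own. The 2 groups were 3 libraries of anterior and 3 libraries of posterior half-sclerotomes, each from a pool of 100 half-sclerotomes dissected from the 11th to the 23rd most recent somites. All libraries came from untreated wild type embryos, and sex was not given.

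ZIC proteins are zinc finger factors related to the GLI factors of the Hedgehog pathway. They bind DNA and act with GLI proteins, and in vertebrate embryos their genes are known from the dorsal neural tube, the dorsal somite and the neural crest border. In mouse, loss of Zic1 causes malformed vertebral arches, which derive from the sclerotome. Iroquois proteins are homeodomain factors of the TALE class, known for setting up regions of the neural tube, heart and limb bud, and vertebrate Irx genes lie in clusters on the chromosome.

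The labels do not say whether the pools were dissected from separate embryos. Levels are FPKM, fragments scaled to transcript length and library total, with 1 value for each group and none for a single library, so no spread between libraries can be shown beside any level. The depth of the libraries is unknown. The authors' q, a p-value adjusted for multiple tests, is the one measure of error, and a row was called when q was under 0.05. Of 17108 rows, 10529 were tested by the authors and 7.07% of these were called, 3.57% as higher in posterior and 3.50% as higher in anterior half-sclerotomes.

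ZIC1 had its higher level in posterior half-sclerotomes. It stood at 6.43 FPKM in anterior against 23.9 FPKM in posterior half-sclerotomes, a ratio of 3.71 (q = 0.00139 per the authors' deposited table). That q belongs to the lowest p of the table, 5e-05, which 380 rows share, so it does not rank ZIC1 among them. By ratio, 30 of the 376 rows called as higher in posterior had a larger fold than ZIC1.

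**Figure D1:**
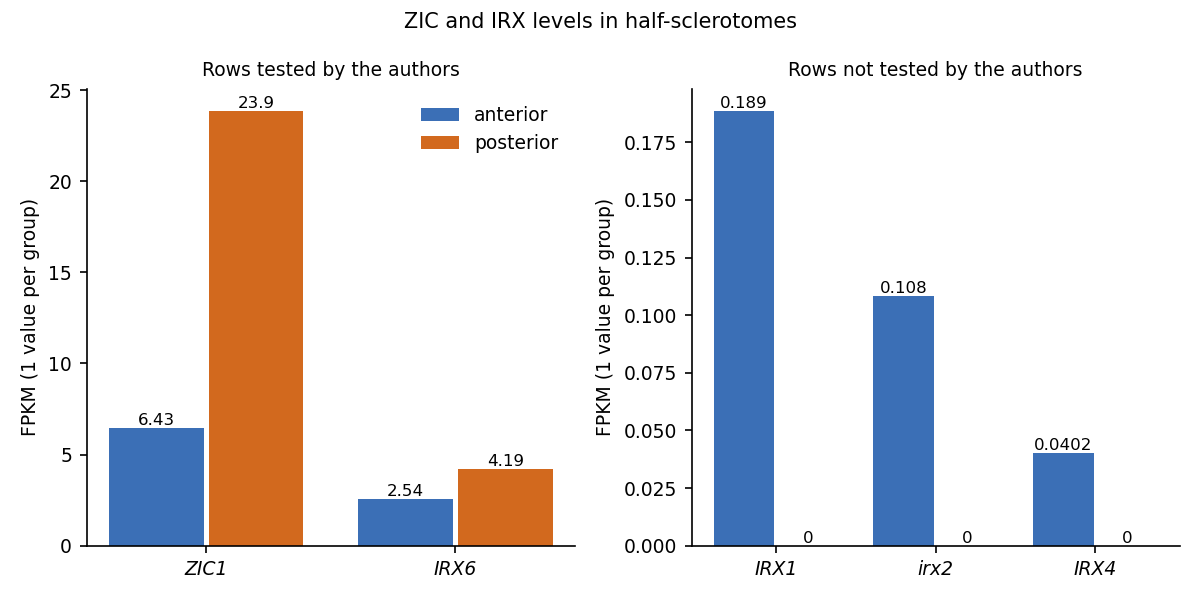
FPKM of ZIC1 and of each IRX row in anterior (blue) and posterior (orange) half-sclerotomes, 1 value per group and no error bar; the left panel holds the 2 rows tested by the authors and the right panel, on a smaller scale, the 3 rows not tested. ZIC1 goes from 6.43 to 23.9 and IRX6 from 2.54 to 4.19, whereas IRX1, irx2 and IRX4 are under 0.2 in anterior and listed at 0 in posterior.

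Of the 4 iroquois rows, IRX6 alone was tested, and it was not called. IRX6 stood at 2.54 FPKM in anterior against 4.19 FPKM in posterior half-sclerotomes, a ratio of 1.65 (p = 0.180, q = 0.603 per the authors' deposited table). Its ratio lay toward posterior, like that of ZIC1, but its q gives no call in either direction. The other 3 iroquois rows were marked as not tested by the authors, which says nothing about a difference. IRX1 stood at 0.189 FPKM, irx2 at 0.108 FPKM and IRX4 at 0.0402 FPKM in anterior half-sclerotomes, and all 3 are listed at 0 in posterior. No fold is given for these 3 rows because one group is listed at 0. Among the 6579 rows not tested, 583 had a value in anterior and 0 in posterior, 324 had the reverse, and 2785 were at 0 in both groups. IRX6 made up 88.3% of the summed level of the 4 iroquois rows in anterior half-sclerotomes, which was 2.87 FPKM. IRX3 and IRX5 have no row under their symbols, so this is not a share of the whole family.

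Among the 5 rows described, 2 were tested, 1 was called as higher in posterior and 0 as higher in anterior by Cuffdiff's q per the authors' deposited table, against 3.57% and 3.50% of all tested rows. At an unadjusted p under 0.05 the counts were the same, 1 and 0. The 2 tested rows passed the authors' own threshold for testing, and their number is too small for a share to be read from it. The order of the levels was ZIC1, IRX6, IRX1, irx2 and IRX4 in anterior half-sclerotomes, and ZIC1 then IRX6 in posterior, with no spread against which neighbours in that order could be told apart.

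ZIC1 was among the lower tested rows in anterior half-sclerotomes and nearer the middle in posterior. In anterior half-sclerotomes, 23.2% of tested rows had a lower FPKM than ZIC1, and in posterior 59.0% did. For IRX6 the shares were 8.23% in anterior and 15.6% in posterior.

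Rows of like level show what the authors' test called at these FPKM. Within 1.5-fold of the mean FPKM of IRX6 there were 1223 tested rows, of which 9.98% were called, and the smallest fold among those called was 1.42. Of the 207 rows there whose ratio, in either direction, was at least that of IRX6, 109 were called. The ratio of IRX6, 1.65, lay within the range of called rows of like level but in its lower part. Of the 122 rows called there, 109 had a ratio at least as large, and the median fold of those called was 2.14. Within 1.5-fold of ZIC1, 33 of 2530 tested rows had a ratio at least as large in either direction, and 14 were called.

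**Figure D2:**
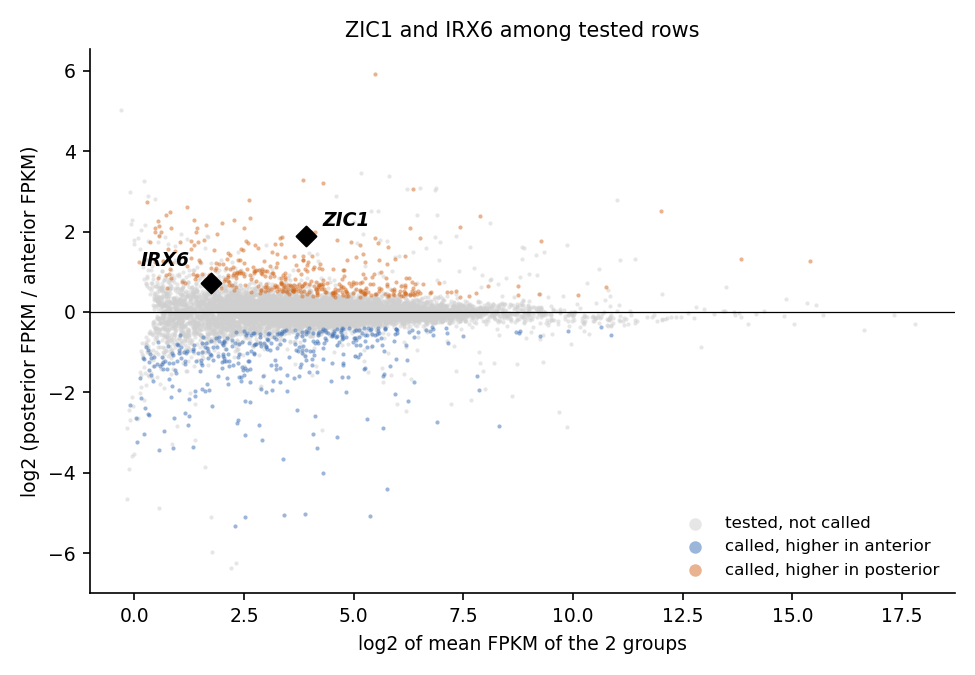
Each point is a row tested by the authors with a value above 0 in both groups, placed by the log2 of its mean FPKM (horizontal) and the log2 of posterior over anterior FPKM (vertical); orange and blue points were called as higher in posterior and in anterior, grey points were not called, and black diamonds are ZIC1 and IRX6. ZIC1 (log2 ratio 1.89) lies above most rows of its level, and IRX6 (0.72) lies lower, where called and uncalled rows mix.

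The 5 rows lie on 3 chromosomes, with coordinates of the authors' build, galGal4. ZIC1 spans 11395947 to 11400537 on chromosome 9, and IRX6 spans 3356406 to 3358310 on chromosome 11. IRX4 (86065381 to 86068294), irx2 (86624614 to 86631727) and IRX1 (87131471 to 87135061) follow each other on chromosome 2, with gaps of 556 kb and 500 kb between them. The 3 rows of that cluster share the same state in these samples, under 0.2 FPKM in anterior and listed at 0 in posterior. None of the 5 rows shares its locus with another row of the table. RefSeq (assembly GRCg7b, used for names and gene order alone) places ZIC4 next to ZIC1 and IRX5 next to IRX6. ZIC2, ZIC4, ZIC5, IRX3 and IRX5 have no row under their symbols and were not analysed under those names.

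Around ZIC1, the called rows were higher in posterior but too few for a regional pattern to be read. The nearest row, 11.0 kb away on chromosome 9 from 11379753 to 11384969, has no symbol in the table (ENSGALG00000006810). It stood at 5.28 FPKM in anterior against 11.7 FPKM in posterior half-sclerotomes, a ratio of 2.21 (q = 0.0129 per the authors' deposited table). RefSeq's gene list could not be matched to the table by identifier, so this row is given no name. It lies before ZIC1, where RefSeq places ZIC4, so it could be ZIC4, but this was not tested. The nearest row with a symbol on that side, PLSCR5 (a phospholipid scramblase family gene), stood at 1.52 and 4.60 FPKM in anterior and posterior but was not called (q = 0.0652 per the authors' deposited table). On the other side the nearest row was gga-mir-6611, listed at 0 in both groups. Over all tested rows, 3.57% were called as higher in posterior and 3.50% in anterior. Within 1000 kb of ZIC1, 16 other rows were tested, 2 were called as higher in posterior and 0 in anterior. They were the row with no symbol and FAM43A, at 90.4 and 127 FPKM (q = 0.0146 per the authors' deposited table).

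Around IRX6, itself not called, the called rows were also higher in posterior and also too few for a regional pattern to be read. The shares over all tested rows were 3.57% called as higher in posterior and 3.50% in anterior. Of 17 other tested rows within 1000 kb of IRX6, 3 were called as higher in posterior and 0 in anterior. These were the matrix metalloprotease gene MMP2 (73.9 and 101 FPKM, q = 0.00473), the demethylase gene FTO (3.10 and 5.67 FPKM, q = 0.00139) and the ciliary gene RPGRIP1L (3.92 and 5.70 FPKM, q = 0.0264, all from the authors' deposited table). MMP2 and FTO are the nearest rows with a symbol on either side of IRX6, at 136 kb and 771 kb. Rows with no symbol, neither of them tested, lie nearer on both sides. The one before IRX6, at 61.2 kb, is listed at 0 in both groups, and the one after, at 302 kb, stood at 0.167 and 0.351 FPKM. In the chromosome 2 cluster no row was called within 1000 kb of IRX1, irx2 or IRX4, where 2, 10 and 10 other rows were tested in overlapping windows. NDUFS6, the nearest symbol before IRX4 and a subunit gene of mitochondrial complex I, stood at 60.8 and 59.4 FPKM (q = 0.968), and ANKS6, the nearest after IRX1, at 2.61 and 1.77 FPKM (q = 0.228, all from the authors' deposited table). The nearest row between IRX4 and irx2 was a 5S_rRNA row, listed at 0 in both groups.

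Rows with the most similar pair of levels were sought by the distance between log2 FPKM pairs over the 2 groups. For ZIC1 these were the small nucleolar RNA snoU109 (6.73 and 23.4 FPKM, q = 0.883), FLRT2, a transmembrane guidance ligand gene (6.94 and 24.4 FPKM, q = 0.00139), and VEGFA, the vascular growth factor gene (6.60 and 26.2 FPKM, q = 0.00139, all from the authors' deposited table). snoU109 and ZIC1 had almost the same pair of FPKM values and different calls. For IRX6 they were ZNF385C (2.68 and 4.07 FPKM, q = 0.382), PDE6G, a phosphodiesterase subunit gene (2.58 and 4.47 FPKM, q = 0.523), and the meiotic gene REC114 (2.59 and 4.49 FPKM, q = 0.284), none of them called per the authors' deposited table. With 2 values per row, likeness of this kind is a match of levels and says no more.

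The called GLI and TALE factors did not all share the direction of ZIC1. With 3 tested GLI and GLIS rows, no direction of that group can be read. Of 6 GLI and GLIS factors, the relatives of ZIC, 5 had a row and 3 were tested, with 1 called in each direction and a median log2 ratio of 0.04, against 0.0046 over all tested rows. GLI1, an activator and target of Hedgehog signalling, stood at 26.6 FPKM in anterior against 37.2 FPKM in posterior (q = 0.0326), and GLI3, largely a repressor, at 27.6 and 18.5 FPKM (q = 0.00139, all from the authors' deposited table). GLI2 stood at 17.1 and 17.6 FPKM (q = 0.946 per the authors' deposited table). Of 12 TALE homeobox genes, the relatives of iroquois, 9 had a row and 8 were tested. MEIS1, a HOX cofactor gene, was called as higher in anterior, at 103 and 72.9 FPKM (q = 0.00371 per the authors' deposited table), and 0 were called as higher in posterior, where 1 had an unadjusted p under 0.05 in Cuffdiff's table. The median log2 ratio of the 8 was -0.0046. For comparison, 3.57% of all tested rows were called as higher in posterior and 3.50% in anterior.

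Pathways that pattern the neural tube and somite, where ZIC and IRX genes are used, were read next. Their counts stand beside shares of 3.57% called toward posterior and 3.50% toward anterior over all tested rows. Among 9 tested Hedgehog genes, 2 were called toward posterior and 2 toward anterior (median log2 ratio 0.09). DISP1, which releases the ligand, stood at 7.00 and 10.4 FPKM (q = 0.00371), the co-receptor gene CDON at 9.88 and 6.83 FPKM (q = 0.0278) and SUFU, an inhibitor of GLI proteins, at 40.5 and 29.6 FPKM (q = 0.0387, all from the authors' deposited table). Among 10 tested BMP genes, 1 was called in each direction (median -0.08), the target gene ID2 at 170 and 226 FPKM (q = 0.0211) and the ligand gene BMP7 at 3.65 and 1.79 FPKM (q = 0.00261, all from the authors' deposited table). The BMP targets MSX1 and MSX2 were not tested. They stood at 0.809 and 0.164 FPKM in anterior and are both listed at 0 in posterior.

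Among 13 tested Wnt genes, 1 was called toward posterior and 3 toward anterior (median log2 ratio 0.14). The ligand gene WNT16 stood at 3.91 and 35.8 FPKM, and the antagonist genes FRZB and SFRP1 at 34.1 and 10.3 FPKM and at 87.1 and 38.7 FPKM, each at q = 0.00139 per the authors' deposited table. Among 8 tested FGF genes, 1 was called toward anterior, the receptor gene FGFR2, at 17.6 and 12.7 FPKM (q = 0.0190 per the authors' deposited table), and 0 posterior calls, with 0 posterior rows at an unadjusted p under 0.05 in Cuffdiff's table. Their median log2 ratio was -0.11. Calls over all tested rows were 3.57% toward posterior and 3.50% toward anterior. The posterior ratio of ZIC1 was above that of every called member of these 6 pathway lists except WNT16.

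ZIC and IRX genes are also used in cell types that border the sclerotome, so markers of these were read in the same table. The part of any of these cell types in the ZIC and IRX levels was not tested. Across all tested rows, 3.57% were called toward posterior and 3.50% toward anterior. Dorsal progenitors of the neural tube are known to express ZIC1. Of 15 markers of neural tube progenitors, not of dorsal ones alone, 7 had a row. The summed level of these rows was 10.6 FPKM in anterior against 3.70 FPKM in posterior half-sclerotomes. Most of that difference was SOX2, and the other 6 rows summed to 3.82 and 3.60 FPKM. Of those 6, only DBX2 was higher in posterior (2.40 and 3.47 FPKM), and it held most of their posterior sum. LMX1A, not tested, stood at 0.746 and 0.0493 FPKM. OLIG3 is listed at 0 in both groups, Nkx-6.2 and DBX1 at 0 in posterior, and Pax-6 stood at 0.464 and 0.0752 FPKM. Of 2 tested, SOX2 (6.74 and 0.107 FPKM, q = 0.680) and DBX2 (2.40 and 3.47 FPKM, q = 0.521), 0 were called per the authors' deposited table, and 0 had an unadjusted p under 0.05 in Cuffdiff's table. SOX2, DBX2, Pax-6, LMX1A, GLI2, SHH and T were named after their values were seen. Notochord and floor plate genes had 3 rows of 6 and summed to 3.29 FPKM in anterior against 5.12 FPKM in posterior. SHH, the Hedgehog ligand gene, was not tested and stood at 0.0969 FPKM in posterior, and Gnot1 is listed at 0 in posterior. The 1 tested, T, was not called (q = 0.0510 per the authors' deposited table) and was at an unadjusted p under 0.05.

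Markers of the dorsal somite and of neural crest held anterior calls and no posterior ones. The part of these tissues in the ZIC1 level was not tested. Beside the counts here, 3.50% of all tested rows were called as higher in anterior and 3.57% in posterior. Of 15 dermomyotome and myotome markers, 14 had a row and 12 were tested. Of these, 6 were higher in anterior and 0 in posterior, with 0 posterior at an unadjusted p under 0.05 in Cuffdiff's table, and the summed level was 204 FPKM in anterior against 141 FPKM in posterior. PAX3 stood at 10.2 and 1.22 FPKM, MEF2C at 13.9 and 3.64 FPKM and CHRNA1 at 9.63 and 2.89 FPKM, each at q = 0.00139 per the authors' deposited table. Among 11 tested markers of neural crest and its Schwann lineage, 7 were higher in anterior and 0 in posterior, with 1 posterior row at an unadjusted p under 0.05 in Cuffdiff's table, and they summed to 404 and 176 FPKM. TFAP2A stood at 9.52 and 0.240 FPKM (q = 0.0138), and TFAP2B at 28.9 and 0.886 FPKM and CDH7 at 11.3 and 0.326 FPKM (both q = 0.00139, all from the authors' deposited table). No marker of these 2 lists is listed at 0. Among 3 tested neuron genes, TUBB3 was higher in anterior (64.4 and 36.4 FPKM) and DCX in posterior (9.38 and 21.2 FPKM), both at q = 0.00139 per the authors' deposited table. The third tested, ELAVL4, was not called (14.7 and 11.9 FPKM, q = 0.606 per the authors' deposited table). Of the rows not tested, STMN2 stood at 0.833 and 0.0639 FPKM, ISL1 at 1.43 and 0.166 FPKM and NEUROD1 at 0.865 and 0.104 FPKM. MNX1 is listed at 0 in anterior and at 0.0646 FPKM in posterior. ELAVL4, STMN2, ISL1 and NEUROD1 were named after their values were seen. The 7 neuron rows summed to 91.6 and 69.9 FPKM.

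The sclerotome and endothelium lists held calls toward posterior, and sclerotome 1 toward anterior, beside members that were not called. As a background, 3.57% of all tested rows were called toward posterior and 3.50% toward anterior. Among 10 tested sclerotome genes, 6 were called toward posterior and 1 toward anterior, with summed levels of 818 and 1154 FPKM. UNCX, a posterior sclerotome factor, stood at 1.45 and 87.8 FPKM, TCF15 at 39.8 and 104 FPKM, and TBX18, an anterior sclerotome factor, at 32.5 and 3.10 FPKM, each at q = 0.00139 per the authors' deposited table. Among 12 tested endothelial genes, 6 were called toward posterior and 0 toward anterior, with 0 anterior at an unadjusted p under 0.05 in Cuffdiff's table, and summed levels were 169 and 218 FPKM. VWF stood at 0.620 and 2.45 FPKM, SOX18 at 3.94 and 7.36 FPKM and PLVAP at 26.7 and 44.2 FPKM, each at q = 0.00139 per the authors' deposited table. No gene of these 2 lists is listed at 0. The part of either cell type in the ZIC1 level was not tested. The other 3 sclerotome genes, FOXC2, TWIST1 and Sox9, and 6 endothelial genes, among them KDR (7.37 and 7.46 FPKM) and FLI1 (38.2 and 34.8 FPKM), were not called; these 5 were named after their values were seen. In tissue pools of this kind, more cells of a type and more RNA per cell cannot be told apart.

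Lists of mesoderm lateral to the somite held calls toward anterior and none toward posterior. Their tested genes are few, and all tested rows were called at 3.50% toward anterior and 3.57% toward posterior. Intermediate mesoderm genes had 6 rows of 7 with summed levels of 4.58 and 2.28 FPKM, EMX2 listed at 0 in posterior, and 1 tested gene, WT1, higher in anterior (2.69 and 1.47 FPKM, q = 0.0314 per the authors' deposited table). Limb and lateral plate genes had 7 rows of 8 and summed to 28.4 and 15.3 FPKM. Of 4 tested, TBX2 (13.5 and 1.48 FPKM, q = 0.00139) and PRRX2 (1.84 and 0.684 FPKM, q = 0.0190) were called as higher in anterior per the authors' deposited table. None was called as higher in posterior, with 0 posterior at an unadjusted p under 0.05 in Cuffdiff's table. TBX4 and TBX5 are among its rows with a 0 in a group. PRRX1 (10.5 and 9.26 FPKM, q = 0.845) and FGF10 (1.39 and 2.66 FPKM, q = 0.339) were not called per the authors' deposited table. Both were named after their values were seen.

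**Figure D3:**
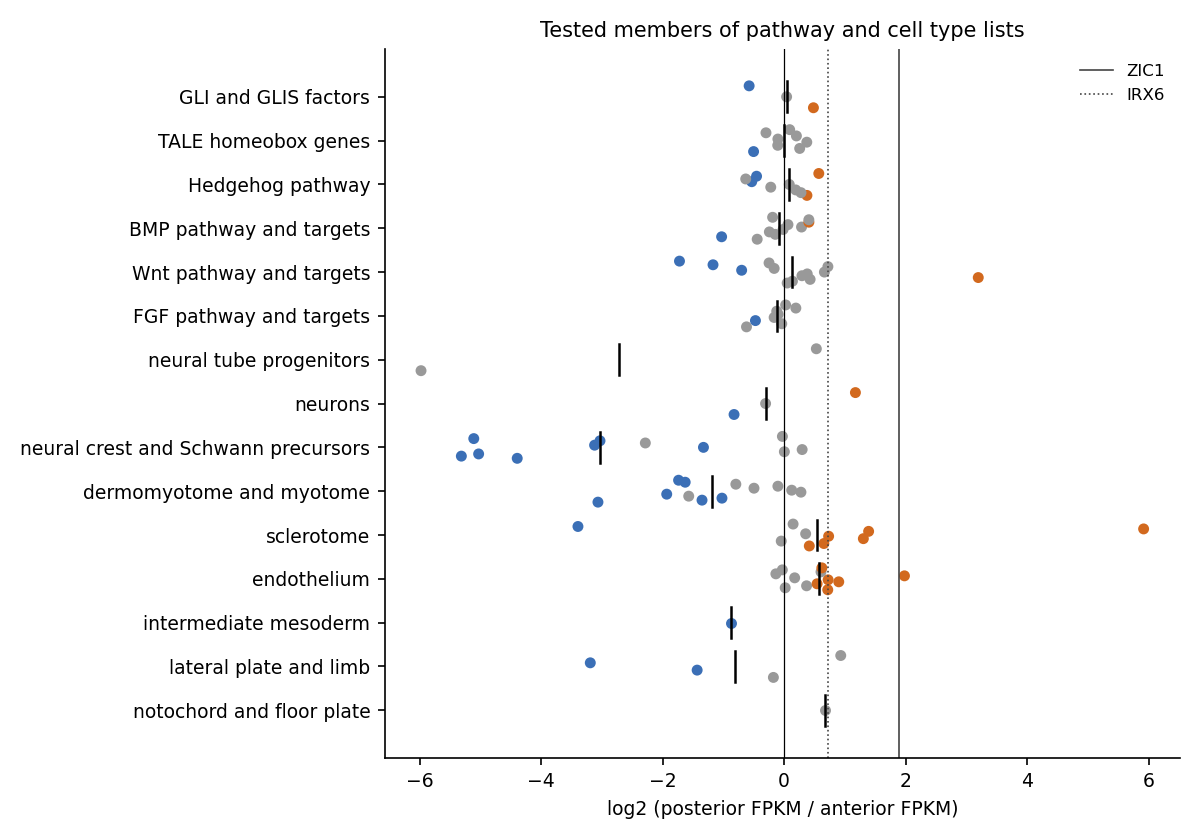
Each point is a tested gene of a pathway or cell type list with a value above 0 in both groups, placed by its log2 ratio of posterior over anterior FPKM; orange points were called as higher in posterior, blue as higher in anterior, grey were not called, black ticks are list medians, and vertical lines mark ZIC1 (1.89) and IRX6 (0.72). Called crest and dermomyotome points lie left of 0, called endothelium points right of it, and few points reach the ratio of ZIC1.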

How the data were processed

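Libraries were made from about 200 ng of poly(A)-selected RNA per pool and read as 50 nt single-end reads, per the labels' protocols. The build galGal4 and the tools TopHat2 2.1.0, Cufflinks 2.2.1, Cuffdiff and FastQC are named, without roles, per the submitters' processing notes. The authors deposited 1 FPKM value per group, a p-value and a q-value for each gene row, per the file headers. The sources used here name no annotation release or counting options. FPKM changes with library totals and with the handling of reads that fit several genes.

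Ratios are posterior over anterior FPKM with no pseudocount, and a row was called at the authors' q under 0.05. The deposited q matched a Benjamini-Hochberg adjustment over tested rows within 5.27e-07. Starts have 1 added, since the lowest deposited start is 0. No model was fitted here, because the table holds no value per library, and tables were handled with pandas 2.3.3. Members, lists and neighbours were chosen with earlier results of these data known. The 15 lists hold 183 different genes, of which 147 had a row, 11 of them through a RefSeq synonym (GRCg7b). Of the 6 rows matching the rule, 1 is not reported here. Named were the 5 others, their nearest rows, the 3 rows nearest in level to each tested member, and up to 3 called genes per list with the largest ratios. Call counting and the search for similar rows were run on copies of the deposited table with planted values, which checks the code and not the calls. Alternatives tried were other q thresholds, a minimum FPKM, pseudocounts and centring.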

Additional observations from a re-analysis of the deposited data

How the results depend on the processing

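The counts of called rows, 1 higher in posterior and 0 in anterior, were the same at a q threshold of 0.01, at 0.1, and with a mean FPKM of at least 1. The 2 tested rows, with q of 0.00139 and 0.603 and mean FPKM of 15.1 and 3.36, leave these settings no way to change the counts. The log2 ratio lay between 1.74 and 1.89 for ZIC1 and between 0.55 and 0.72 for IRX6, where the lowest value came from a pseudocount of 1 FPKM. A pseudocount added to both groups cannot reverse a ratio, so the kept direction is no check of it. Centring on the median of all tested rows moved ratios by 0.0046. IRX1, irx2 and IRX4 have no ratio without a pseudocount. With 0.1 FPKM added their log2 values were -1.53, -1.06 and -0.49, and with 1 FPKM added -0.25, -0.15 and -0.057, so the pseudocount sets their size. No paired analysis was possible because the table has no value per library, and for the same reason leaving out a library was not run. Depth, and with it any limit on rows listed at 0, is unknown.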
